A study of Homo sapiens with 42 samples.

Results

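The open chromatin of 2 untreated melanoma cell lines was compared: 92-1, an established line from a melanoma of the eye (uveal melanoma), and A375, an established line from a melanoma of the skin (cutaneous melanoma). Chromatin accessibility was measured by ATAC-seq, in which a transposase cuts DNA where nucleosomes leave it exposed, and each sample was deposited as a list of peaks. The members are the 6 peak lists of cells given the solvent DMSO for 4 h, with 3 biological replicates of each line, out of 42 lists in the series. The rest of the series holds the same lines and 5 others (22RV1, RD, DU4475, HCT116 and MV411) with DMSO or with a compound, FHT-1015. Each line is 1 cell population, so its replicates describe that line and not uveal or cutaneous melanoma at large.

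Both kinds of melanoma come from melanocytes, cells of neural crest origin. SOX10, a neural crest transcription factor, activates MITF, and MITF drives the pigment genes TYR, TYRP1, DCT, PMEL and MLANA. Uveal melanomas typically carry activating mutations of the G protein genes GNAQ or GNA11, which signal through phospholipase C and protein kinase C, whereas A375 carries mutant BRAF, which signals through the MAPK cascade. Cutaneous lines also differ in state, from pigmented cells with high MITF to undifferentiated cells with high AXL, EGFR and AP-1 activity. Open regions far from genes tend to be specific to a cell type, while gene starts are often open in many cell types.

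Because the lists differ in length, each was turned into windows of 500 bp around peak summits that do not overlap, ranked by the authors' −log10 p, and the 20000 strongest of each sample were compared. A window counted as shared when it overlapped by at least 100 bp. The 6 equal lists formed 51875 regions. Of these, 3905 regions (7.53%) were in all 3 samples of 92-1 and none of A375, 5223 (10.1%) in all 3 of A375 and none of 92-1, and 3100 (5.98%) in all 6. They are called 92-1-only, A375-only and shared regions here, words that speak of the 20000 strongest windows and not of every deposited peak: 42.0% of the 92-1-only regions were in no deposited A375 list and 25.5% in all 3, and 23.6% of the A375-only regions were in no deposited 92-1 list and 23.8% in all 3. A strong window below is one of the 20000, and the other 39647 regions were in only some samples of a line. From all deposited peaks, 989496 regions gave 20929 (2.12%), 14925 (1.51%) and 17843 (1.8%) of the same classes, and from strict peaks (−log10 q of at least 5) 94278 regions gave 3611 (3.83%), 5845 (6.2%) and 3607 (3.83%), so the line with more regions of its own depended on the lists used. No test per region was possible, since 3 samples against 3 cannot give an exact p below 0.1.

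Promoter sequences of 5 genes show where these classes fall. They are the 250 bases before a start site from RefSeq (GRCh38.p14), each read 5′ to 3′ on the gene's strand. In the first 4, capitals mark the 21 bases around the summit of the region that overlaps the promoter. PRKCB, a protein kinase C gene (chr16:23835733-23835982, plus strand), had a 92-1-only region with ranks 7950, 8992 and 9081 among the windows of its 3 samples. PHLDA1, which responds to MAPK signalling (chr12:76031777-76032026, minus strand), had an A375-only region with ranks 2337, 1036 and 1576. JUND, an AP-1 subunit (chr19:18281623-18281872, minus strand), had one with ranks 1943, 505 and 2237. The JUND region was also in all 15 untreated samples of the other lines, and the PHLDA1 region in 13 of them. Both were weaker peaks in every 92-1 list, at ranks 34356, 49432 and 24063 for JUND and 22353, 59344 and 33739 for PHLDA1. SPRY2, a feedback inhibitor of MAPK signalling (chr13:80341127-80341376, minus strand), had a shared region with ranks 2521, 631 and 2227 in 92-1 and 1537, 1952 and 1652 in A375. In the promoter of TYR, tyrosinase (chr11:89177625-89177874, plus strand), capitals mark the 2 matches of CATGTG, the sequence that MITF is known to bind. TYR had a window at its start in 1 sample only, replicate 1 of 92-1, at rank 15521.
PRKCB: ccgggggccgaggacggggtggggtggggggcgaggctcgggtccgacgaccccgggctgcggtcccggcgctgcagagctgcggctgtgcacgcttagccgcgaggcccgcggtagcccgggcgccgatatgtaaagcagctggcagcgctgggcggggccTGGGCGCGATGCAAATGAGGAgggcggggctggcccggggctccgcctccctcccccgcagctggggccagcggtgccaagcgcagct
PHLDA1: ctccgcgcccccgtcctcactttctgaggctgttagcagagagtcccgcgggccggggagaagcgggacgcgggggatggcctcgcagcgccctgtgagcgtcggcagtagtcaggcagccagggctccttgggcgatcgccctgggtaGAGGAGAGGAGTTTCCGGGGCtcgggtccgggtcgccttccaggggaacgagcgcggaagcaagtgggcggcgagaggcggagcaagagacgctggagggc
JUND: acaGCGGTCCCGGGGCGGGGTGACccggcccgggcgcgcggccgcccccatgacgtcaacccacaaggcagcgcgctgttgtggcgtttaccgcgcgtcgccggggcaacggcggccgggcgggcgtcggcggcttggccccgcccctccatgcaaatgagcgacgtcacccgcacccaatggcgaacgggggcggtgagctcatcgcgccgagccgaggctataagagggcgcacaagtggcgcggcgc
SPRY2: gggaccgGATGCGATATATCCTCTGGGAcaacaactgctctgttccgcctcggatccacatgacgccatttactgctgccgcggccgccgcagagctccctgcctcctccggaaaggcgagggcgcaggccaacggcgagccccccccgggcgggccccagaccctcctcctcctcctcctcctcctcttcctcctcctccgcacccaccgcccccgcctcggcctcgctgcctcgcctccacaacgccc
TYR: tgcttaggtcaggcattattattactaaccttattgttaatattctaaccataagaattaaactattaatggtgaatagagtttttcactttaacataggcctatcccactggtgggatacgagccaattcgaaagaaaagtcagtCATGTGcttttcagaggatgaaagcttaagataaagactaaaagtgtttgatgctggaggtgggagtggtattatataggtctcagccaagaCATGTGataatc

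The lists themselves differed between the lines. The 92-1 samples held 355876, 431956 and 356965 peaks and the A375 samples 184466, 227265 and 181865, so the groups did not overlap (exact permutation test, two-sided, p = 0.1, the smallest 3 against 3 allows). With strict peaks only (−log10 q of at least 5) there were 66350, 25397 and 14266 in 92-1 and 60943, 65602 and 26365 in A375, and the groups overlapped (exact permutation p = 0.5). The background pileup, recovered from each peak's fold and p and used here in place of the unknown read depth, was 0.430, 0.123 and 0.0839 in 92-1 and 0.901, 0.679 and 0.606 in A375. All 92-1 samples lay below A375 by this measure, and their peaks were narrower, with a median of 197 to 210 bp against 244 to 304 bp. Peak names carry the word "small" in 92-1, 22RV1, HCT116 and MV411 and not in A375, RD and DU4475, which the sources used here do not explain. Line, depth and this mark cannot be told apart in the comparison of 92-1 with A375.

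**Figure D1:**
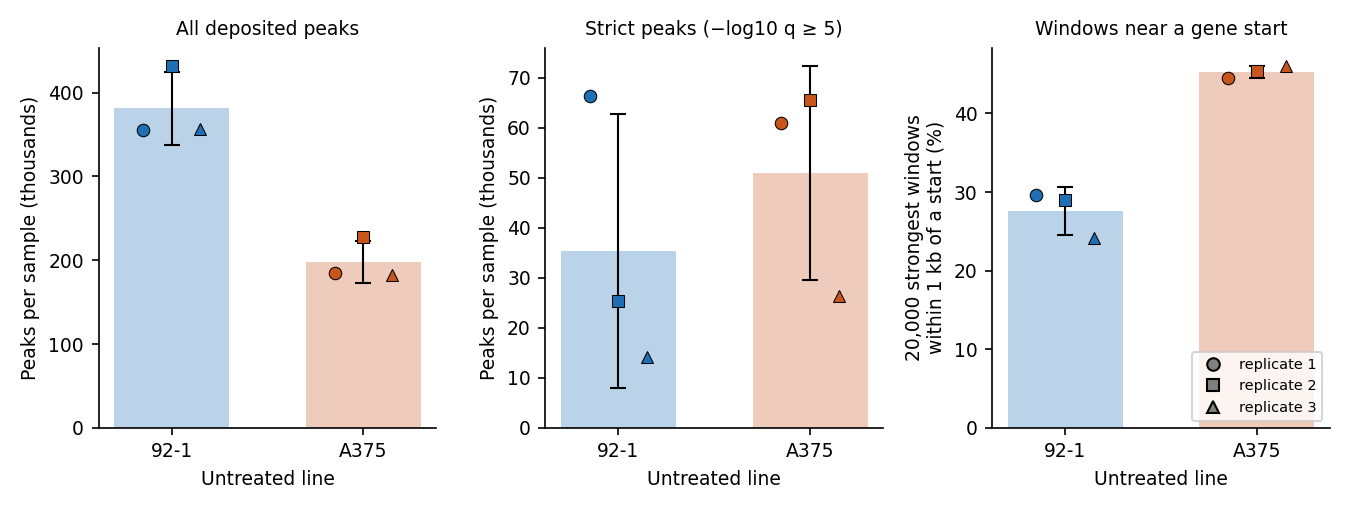
Peaks per sample, strict peaks per sample and the percent of the 20000 strongest windows within 1 kb of a gene start, for the 3 untreated samples of each line (symbols); bars are means and error lines 1 SD. The lines separate in the left and right panels (24.1 to 29.6% of windows near a start in 92-1, 44.5 to 46.0% in A375) and overlap in the second.

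**Figure D2:**
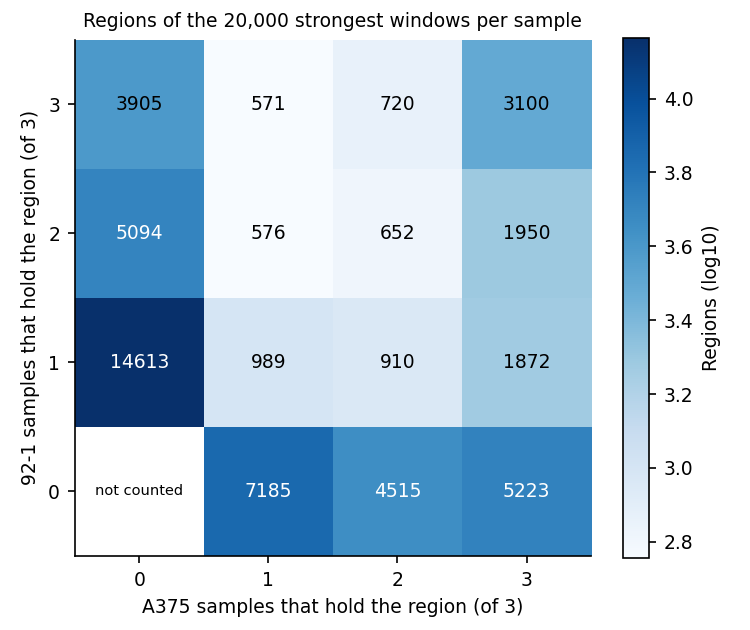
Number of regions of the equal lists by how many 92-1 samples (vertical axis) and A375 samples (horizontal axis) hold them, with colour on a log10 scale. The corners hold 3905 92-1-only, 5223 A375-only and 3100 shared regions, and 14613 regions were in 1 sample of 92-1 alone.

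Strong open windows lay near gene starts more often in A375 than in 92-1. The share of the 20000 strongest windows within 1 kb of the start of a protein-coding gene was 29.6%, 29.0% and 24.1% in 92-1 and 44.5%, 45.4% and 46.0% in A375. The means were 27.6% ± 3.03 and 45.3% ± 0.780 (SD, n = 3; exact permutation p = 0.1, groups not overlapping). The difference of −17.7 percentage points was −10.9 with 50000 windows and −10.5 with windows ranked by fold enrichment. By class, 6.48% of 92-1-only regions (253), 31.3% of A375-only regions (1634) and 71.0% of shared regions lay within 1 kb of a start, while 62.0%, 34.3% and 14.9% lay more than 50 kb away. Among 19974 genes, 235 (1.18%) had a window within 1 kb of a start in all samples of 92-1 and none of A375, 1388 (6.95%) in A375 only, 2776 (13.9%) in both and 8570 (42.9%) in no sample. Genes of cytosolic ribosomal proteins, which every cell uses, went the same way: 8 of 61 had such a window in A375 only, among them RPLP0 and RPS19, none in 92-1 only, and 6 in both. In the other lines the share was 42.5 to 42.9% in 22RV1, 40.7 to 43.0% in HCT116, 27.5 to 28.3% in MV411, 56.3 to 57.6% in RD and 57.4 to 62.3% in DU4475. The part of depth and of peak width in this difference was not tested.

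Regions of the 2 classes were also looked up in the untreated samples of the 5 other lines, which did not enter the choice. The 92-1-only regions were in at least 2 of 3 samples in 21.7% of cases for 22RV1, a prostate cancer line, 19.5% for HCT116, a colon cancer line, and 15.8% for MV411, a leukaemia line. They were there in 7.78% for RD, a rhabdomyosarcoma line, and 5.66% for DU4475, a breast cancer line. The A375-only regions were found in 19.7%, 30.8%, 14.8%, 35.3% and 34.3% of cases in the same order. Over all 51875 regions the shares were 22.7%, 24.4%, 15.8%, 24.9% and 23.6% in that order. In the 3 lines whose peak names carry "small", 92-1-only regions thus recurred no more than all regions did. In RD and DU4475 they recurred less. A375-only regions recurred most in these 2 lines without the word, above the share of all regions. The strongest 92-1-only regions followed that mark: of the 100 with the best worst rank, 89 were in at least 2 samples of each of 22RV1, HCT116 and MV411 and in none of RD and DU4475. Over all 3905 it was 195 (4.99%).

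**Figure D3:**
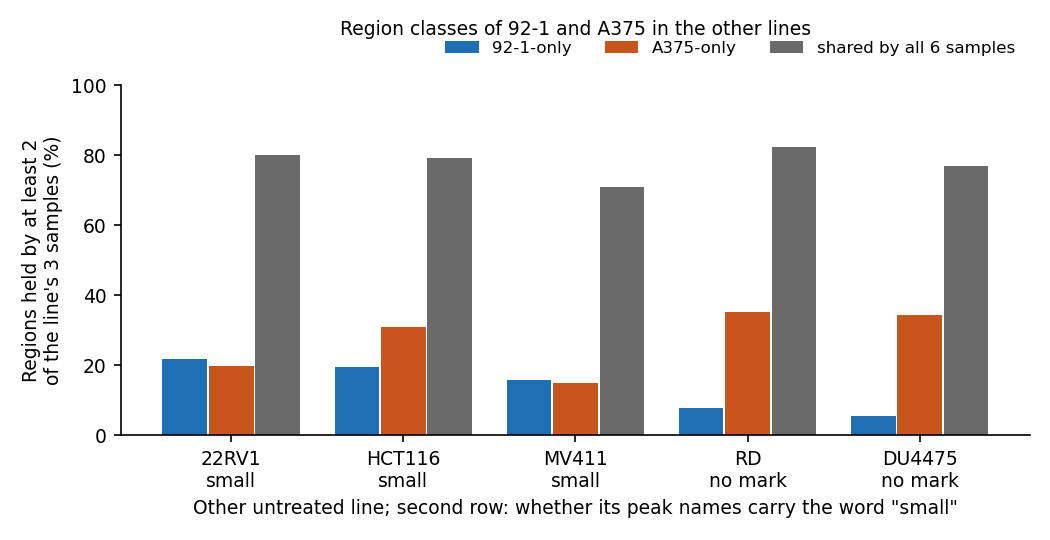
Percent of 92-1-only, A375-only and shared regions that at least 2 of 3 untreated samples of each other line hold; the word under a line says whether its peak names carry "small". Shared regions recurred in 71.0 to 82.5% of cases, 92-1-only regions in 5.66 to 21.7% and A375-only regions in 14.8 to 35.3%.

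The 6 strongest 92-1-only regions illustrate this. They lay in or nearest to PDZRN4, SPTLC3, RBFOX2, CNTNAP2, ARHGEF28 and VPS13B, had ranks between 2 and 9 in every 92-1 sample, and were in all 9 samples of 22RV1, HCT116 and MV411 and in none of the 6 of RD and DU4475. The first, chr12:41363435-41363934 inside PDZRN4, had ranks 3, 3 and 4. A region inside MLPH, which links melanosomes to the motor myosin Va, was of the same kind, with ranks 23, 26 and 35. Results below are therefore given also for regions in none of the 15 samples of other lines, a choice made after seeing the data. There were 2349 such 92-1-only regions (60.2%), 2072 A375-only regions (39.7%) and 315 shared ones (10.2%), and 1.49%, 3.62% and 3.49% of them lay within 1 kb of a gene start. Such 92-1-only regions were nearest to 5.46% of all genes and such A375-only regions to 6.71%. On the melanocyte factor list they were nearest to 2 and 5 of 18 genes, and on the MAPK list to 2 and 4 of 22.

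The strongest A375-only regions were of 2 kinds. Those at the starts of SH3TC2, ANKHD1-EIF4EBP3 and AKAP8 were in 1, 10 and 15 of the 15 untreated samples of other lines. Those 116.6 kb from CNTLN, 1168 kb from CTNNA2 and 28.0 kb from BRINP2 were in none. The SH3TC2 and AKAP8 regions were weaker peaks in every 92-1 list, at ranks 28277, 26601 and 47312 for SH3TC2 and 21806, 55524 and 42074 for AKAP8. The CNTLN region, chr9:17018161-17018660, had ranks 68, 50 and 90 in A375. The strongest 92-1-only region in no other line, 415.4 kb from BRINP3 (chr1:190893019-190893518), had ranks 173, 244 and 359. Among shared regions in no other line, RXRG, a retinoid receptor gene on the list of melanocyte factors, had one 22.9 kb from its start (chr1:165467766-165468265), with ranks 356, 1432 and 1017 in 92-1 and 203, 325 and 1343 in A375.

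Samples treated with FHT-1015 did not enter the choice of regions either, but they differ from the untreated ones in treatment, and 92-1 replicates 2 and 3 among them had only 2037 and 1412 strict peaks. Of the A375-only regions, 54.8% were in all 3 treated A375 lists of 20000 windows and 78.9% in none of the 3 treated 92-1 lists. Of the 92-1-only regions, 10.2% were in all 3 treated 92-1 lists, 50.1% in none of them, and 91.9% in none of the treated A375 lists. Over all 51875 regions, 24.4% were in all 3 treated A375 lists and 60.3% in none of them. For the treated 92-1 lists these shares were 3.78% and 67.6%.

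The melanocyte markers were next examined. At SOX10, strong windows lay around the gene in A375 and almost none in 92-1. In its gene body and the 100 kb on either side there were 1, 0 and 0 of the 20000 strongest windows in 92-1 and 8, 9 and 6 in A375, so the groups did not overlap. Within 1 kb of either end of SOX10 no sample had one, and the best deposited window there ranked 107102, 29045 and 238717 in 92-1 and 39411, 49350 and 70692 in A375. Chromosome 22, which holds SOX10, had 0.393% of the windows in 92-1 and 0.848% in A375, and the lists may hold this chromosome only in part here, so no absence is read from these values. SOX10 lies within the annotated interval of POLR2F, an RNA polymerase subunit gene, to which the windows inside that interval were therefore given. POLR2F had 0, 0 and 0 windows in 92-1 and 3, 5 and 3 in A375, all in no other line. An A375-only region 32.2 kb from the start of SOX10 (chr22:38016458-38016957) had ranks 11339, 13450 and 13839.

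MITF had 2, 0 and 3 windows in 92-1 and 9, 4 and 10 in A375. A375 was higher in every sample, but the difference in log2(windows + 1), −1.84 ± 0.67 (SE), did not pass in limma (larger adjusted p of the 2 fits described below = 0.138). Both its A375-only regions lay outside the gene body, at 90.2 kb (chr3:69648972-69649471; ranks 9646, 13642 and 13285) and 72.2 kb (chr3:70040312-70040811; ranks 12420, 9986 and 6674), and neither was in an untreated sample of another line. At the first RefSeq start of MITF (position 69739464 of chromosome 3) all 3 A375 samples had a window, at ranks 3358, 5363 and 4089, and replicates 1 and 3 of 92-1 did. At the start farthest into the gene (69936592) no sample had one among its 20000 strongest. The best deposited window there ranked 44563, 21317 and 306154 in 92-1 and 51808, 74500 and 152501 in A375. It was a strict peak in replicates 1 and 2 of 92-1 and in no A375 sample. Both lines thus had open chromatin near MITF.

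To compare genes, each window was given to the nearest protein-coding gene within 100 kb, and log2(windows + 1) was tested with limma in 11225 genes with a mean of at least 0.5 windows. The fit planned for this called 998 genes (8.89%) with more windows in 92-1 and 1738 (15.5%) with more in A375 (Benjamini-Hochberg adjusted p under 0.05). In simulated data in which each gene's sites were redrawn, 173 of 316 calls of that fit were of unchanged genes. A second fit, added after these counts were seen, kept the residual SD from falling below that of redrawing and called 624 and 866. Genes are described as having more windows only where both fits called them: 482 (4.29%) in 92-1 and 604 (5.38%) in A375, an order that turned without any 1 A375 sample (193 to 252 and 120 to 141). Their p is the larger of the 2. In that simulation the rule made 0 false calls and found 40 of 100 genes changed 4-fold and 96 of 100 changed 16-fold. The changed genes were drawn only from those with a mean of at least 2 windows. Of the 11225 tested genes 2332 reach that mean, and for the others the share found was not measured. The simulation used 1 replicate share for both lines, although it was 55.3% in 92-1 and 72.2% in A375. With negative binomial noise the rule made 0 false calls and found 1 and 51 of 100 such genes, so genes that did not pass may still differ. The median over all tested genes was −0.33, and differences are to be read against it. Fewer cells with an open site and weaker opening in each cell cannot be told apart in bulk samples.

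The largest differences towards 92-1 were in genes of several functions. CELF2, an RNA-binding protein gene, had 13, 9 and 13 windows in 92-1 and 0 in each A375 sample, a log2 difference of 3.65 ± 0.15 (SE; limma adjusted p = 6.1e-05). Its 4 92-1-only regions were in no other line. DPP10, a subunit of potassium channels, had 14, 6 and 13 windows against 0, 0 and 0 (log2 difference 3.51). CNTN4 and CNTN5, contactin adhesion genes, had 8, 11 and 11 and 10, 9 and 16 windows in 92-1, and A375 had at most 1. PCDH15 and PCDH11X, protocadherin genes, the netrin receptor gene UNC5D, SPOCK3, PKHD1 and NRG1 passed as well. NRG1, a ligand of ERBB receptors, had 9, 11 and 14 windows in 92-1 and 0, 0 and 1 in A375 (log2 difference 3.27 ± 0.35; adjusted p = 0.0033). ZNF479 had 10 92-1-only regions, but each of them was also in all 3 samples of HCT116, and with windows of other lines left out it had 0, 1 and 1 windows in 92-1. The genes with more windows in 92-1 had a median length of 136.7 kb, those with more in A375 49.6 kb and all tested genes 42.3 kb.

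The largest differences towards A375 were spread over other functions. ZMIZ1, a transcriptional coactivator gene, had 0, 0 and 1 windows in 92-1 and 7, 10 and 7 in A375 (log2 difference −2.82 ± 0.35; limma adjusted p = 0.0057). NFATC2, a calcium-regulated transcription factor gene, had 1, 3 and 0 against 13, 8 and 9, and 6 A375-only regions. DAG1, which encodes the matrix receptor dystroglycan, had 0, 0 and 0 against 5, 5 and 5. The A375-only region at the DAG1 start was a weaker peak in every 92-1 list (ranks 20548, 27067 and 24093). That region was in all 15 untreated samples of other lines. The other DAG1 regions of this class, 30.9, 35.0 and 14.4 kb from a gene start, were deposited peaks in 3, 2 and 3 of the 92-1 lists. COL4A2, a basement membrane collagen gene, had 0, 0 and 1 against 6, 6 and 5, and BCAR3, an adapter of adhesion signalling, 0, 2 and 0 against 9, 9 and 6. NIBAN2, PEBP4, ACTBL2, KIAA0040, FMN1, ERCC1 and GDNF, a neurotrophic factor gene, completed the 12. With windows of other lines left out, only 396 of the 482 genes called for 92-1 and 322 of the 604 for A375 could be fitted. Of these, 293 and 184 were called again, which is 60.8% and 30.5% of all calls, fitted or not. The lists were then no longer equal, with 8936, 9257 and 10653 windows left in 92-1 and 6521, 6183 and 6342 in A375. The median over the genes fitted moved from −0.33 to 0.14, towards 92-1. Some genes that had not passed, such as ID2, SATB1, PAX3, ETS1, CDH2, LMCD1 and SPRED2, passed in these unequal lists. The part of list length in these calls was not tested. The calls of NIBAN2, BCAR3, EGFR, TGFBI, PRRX1, PRKCE, SOX6 and CXCL8 were among those lost. Those of SOX6, FOXD3, AQP1, PRRX1 and CD34, described below, were also lost in each fit that left out 1 of the 6 samples, those of BCAR3, NFATC2, FMN1 and CXCL8 in 5 of these fits, those of TGFBI and PRKCE in 3 and that of EGFR without replicate 3 of A375, while those of CELF2, NRG1, PRKCB, PHLDA1, IER3, TP63 and IKZF1 held in all of them. The call of TP63 was lost with 10000 and with 50000 windows, however, that of IER3 with 50000 windows and that of PHLDA1 with windows ranked by fold enrichment.

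**Figure D4:**
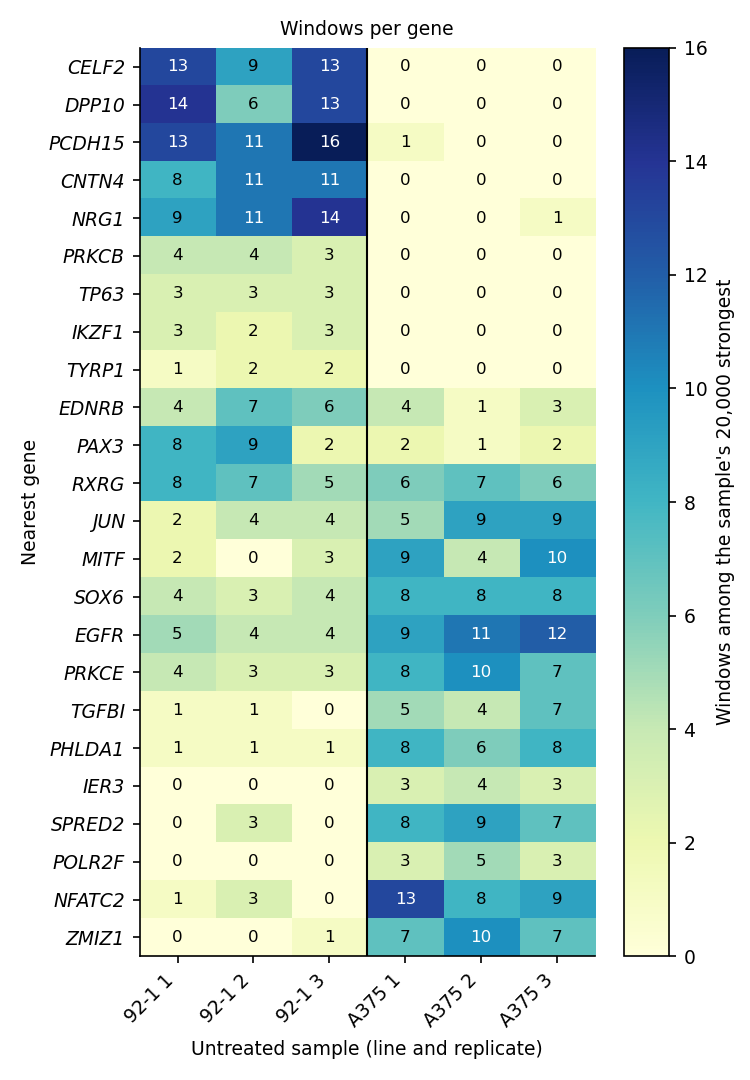
Windows among each sample's 20000 strongest that were nearest to a gene, for 24 genes described in the text (rows) in the 6 untreated samples (columns); the number in a cell is the count. CELF2 runs from 9 to 13 in 92-1 and stays at 0 in A375, RXRG lies between 5 and 8 in both, and ZMIZ1 runs from 7 to 10 in A375.

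Melanocyte transcription factors, 18 genes with 15 tested, held calls in 1 direction when all strong windows were used. None passed with more windows in 92-1, and SOX6 and FOXD3 passed with more in A375, against 4.29% and 5.38% of all tested genes; the list's median log2 difference was −0.19. SOX6, which represses melanocyte differentiation genes, had 4, 3 and 4 windows in 92-1 and 8, 8 and 8 in A375 (−0.96 ± 0.10; limma adjusted p = 0.030). PAX3, which acts with SOX10 on MITF, had 8, 9 and 2 against 2, 1 and 2, and the groups overlapped (adjusted p = 0.198). With windows of other lines left out, PAX3 had 5, 7 and 1 against 0, 0 and 0 and passed towards 92-1 (limma adjusted p = 0.041). SOX6 did not pass then (adjusted p = 0.236). RXRG was alike in count, with 8, 7 and 5 against 6, 7 and 6, yet it had 2 92-1-only, 2 A375-only and 3 shared regions. Of the 18 genes, 8 were nearest to an A375-only region and 4 to a 92-1-only region, against 17.5% and 9.27% of all genes.

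Pigment genes held few windows. Of 27 genes on the pigmentation list, 16 could be tested, and the median log2 difference was 0.36. TYRP1 passed with more in 92-1 and none with more in A375, against 4.29% and 5.38% of all tested genes. TYRP1, which makes eumelanin, had 1, 2 and 2 windows in 92-1 and none in A375 (1.39 ± 0.18; limma adjusted p = 0.020), with a 92-1-only region 18.3 kb from its start (chr9:12674795-12675294; ranks 15891, 9036 and 6649) that was in no untreated sample of another line. The call was lost in 5 of the 6 fits without 1 sample, all but that without replicate 1 of 92-1, and with 50000 windows. DCT, also a melanin enzyme, had 0, 2 and 3 windows in 92-1 and none in A375, and KIT, the receptor that melanocytes need to survive, had 2, 3 and 0 against none. EDNRB, the endothelin receptor of melanoblasts, had 4, 7 and 6 against 4, 1 and 3, with 2 92-1-only regions and 1 shared region, all in no other line. TYR had 3, 2 and 2 against 1, 2 and 2, and a shared region 9.33 kb from its start (chr11:89168299-89168798) at ranks 9758, 16231 and 15677 in 92-1 and 2460, 1507 and 5517 in A375. PMEL and MLANA each had a window in 1 sample of 92-1 and in none of A375.

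In the G protein pathway of uveal melanoma, 1 of 17 tested genes passed in each direction. This is near the share of all tested genes, 4.29% towards 92-1 and 5.38% towards A375. PRKCB, a classical protein kinase C isoform, had 4, 4 and 3 windows in 92-1 and none in A375 (2.21 ± 0.10; limma adjusted p = 9.3e-05). Besides the promoter region shown above, which 22RV1 also had in all 3 samples, it had a 92-1-only region 69.2 kb from the start that no other line had. PRKCE, a different isoform, went the other way, with 4, 3 and 3 against 8, 10 and 7 (−1.10 ± 0.16; adjusted p = 0.012) and 4 A375-only regions, one of them 0.368 kb from its start. That region was a weaker peak in every 92-1 list (ranks 78375, 66182 and 291152) and was in 8 untreated samples of other lines. GNAQ itself had 3, 4 and 2 windows against 1, 1 and 4, and a 92-1-only region in its gene body (chr9:77981231-77981730; ranks 6868, 14782 and 8287). GNA11 had at most 1 window in any sample. All 6 samples had a strong window at the starts of PTK2, the focal adhesion kinase gene, and EIF1AX, and RHOA had a strong window at its start in A375 only, with weaker peaks there in every 92-1 list (ranks 31183, 57415 and 25041).

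On the list of 13 genes of the uveal melanoma prognostic signature, of which 10 were tested, none passed, and the median was 0.12. ID2, an inhibitor of basic helix-loop-helix factors, had a strong window at its start in all 6 samples and 2 further 92-1-only regions, 91.0 and 45.1 kb away, both in no other line. With windows of other lines left out, ID2 passed towards 92-1, with 2, 2 and 2 windows against none (limma adjusted p = 0.0060). SATB1 of the same list then passed towards 92-1 (2, 2 and 3 against none; adjusted p = 0.0027). LMCD1 passed towards A375 (none against 2, 3 and 2; adjusted p = 0.0027). ROBO1, an axon guidance receptor, had 9, 8 and 13 windows against 5, 3 and 6. HTR2B, a serotonin receptor gene, was nearest to no strong window in any sample, although 1 sample of 92-1 had one within 1 kb of its start.

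Of 22 MAPK feedback and output genes, 20 were tested, 3 passed with more windows in A375 and none with more in 92-1, against 5.38% and 4.29% of all tested genes, and the list's median was −1.06. PHLDA1 had 1, 1 and 1 windows in 92-1 and 8, 6 and 8 in A375 (−2.05 ± 0.12; limma adjusted p = 2.2e-04), and only A375 had a strong window at its start. IER3, an immediate early gene, had none in 92-1 and 3, 4 and 3 in A375 (−2.11 ± 0.10; adjusted p = 1.2e-04). A window lay within 1 kb of the IER3 start in all 6 samples, however, and in 92-1 that window was given to a neighbouring gene. EGR1, another, had 1, 0 and 0 against 2, 2 and 3 (adjusted p = 0.049), a call lost without replicate 2 or 3 of 92-1, without each A375 replicate, with a pseudocount of 0.5, without the filter on low counts and with 50000 windows. SPRED2, a MAPK inhibitor, had 0, 3 and 0 against 8, 9 and 7 but missed the threshold (−2.50 ± 0.63; adjusted p = 0.053), with 4 A375-only regions of which 2 were in no other line. With windows of other lines left out, SPRED2 had 0, 1 and 0 against 3, 3 and 2 and passed towards A375 (limma adjusted p = 0.025). Regions of the A375-only kind were nearest to 11 of the 22 genes, against 17.5% of all genes, and 92-1-only regions to 2, against 9.27%. SPRY4 (2 regions), SPRED1, DUSP5, ETV4, MAFF and FOSL1 were among the 11. DUSP6 and SPRY2 had a strong window at their starts in all 6 samples.

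AP-1 and TEAD factors showed no gene passing in either direction among 13 tested (median −0.67), while 4 of 18 genes had a strong window at the start in A375 only and none in 92-1 only, against 6.95% and 1.18% of all genes. The 4 were JUND, FOSL1, TEAD4 and WWTR1, and the JUND and TEAD4 regions were weaker peaks in every 92-1 list. FOSL1, an AP-1 subunit tied to undifferentiated melanoma, had a region 0.005 kb from its start with ranks 10812, 6306 and 9275 in A375, also found in all samples of DU4475 and HCT116 and in none of RD. JUN had a strong window at its start in all 6 samples, at ranks 3611, 3501 and 4129 in 92-1 and 3068, 1637 and 2353 in A375, and 2, 4 and 4 windows against 5, 9 and 9 (adjusted p = 0.116). Of 19 tested YAP and TEAD target genes, FOXF2 passed with more windows in 92-1 and LATS2, a Hippo kinase gene, with more in A375. This is near the 4.29% and 5.38% of all tested genes, and both calls were lost in 5 of the 6 fits without 1 sample.

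Of 21 tested genes of the undifferentiated state, 2 passed with more windows in 92-1 (NRG1 and CXCL8) and 3 with more in A375 (EGFR, TGFBI and PRRX1), against 4.29% and 5.38% of all tested genes, with a median of −0.72. EGFR, a growth factor receptor gene, had 5, 4 and 4 windows in 92-1 and 9, 11 and 12 in A375 (−1.13 ± 0.14; limma adjusted p = 0.0055), with 5 A375-only regions and 1 92-1-only region. Only 1 of these 5 was in no untreated sample of another line. TGFBI, a matrix protein gene, had 1, 1 and 0 against 5, 4 and 7 (−1.97 ± 0.37; adjusted p = 0.020). AXL, a receptor kinase that marks this state, had 0, 0 and 1 windows against 1, 1 and 1, with an A375-only region 0.480 kb from its start (chr19:41226025-41226524; ranks 8614, 7756 and 12388). MET had a strong window at its start in A375 only, at ranks 408, 2999 and 2026. SOX9, a neural crest factor, had one in 92-1 only, at ranks 18169, 1303 and 917, and 22RV1, RD, DU4475 and HCT116 had the same region in all 3 samples. NGFR had no window in any sample.

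Genes that mark other cell types were also read. Their calls stand against 4.29% (92-1) and 5.38% (A375) of all tested genes. Their strong windows at a start in 1 line only stand against 1.18% (92-1) and 6.95% (A375) of all genes. Of 11 tested genes of the keratinocyte and epithelial list, TP63 passed with 3, 3 and 3 windows in 92-1 and none in A375 (limma adjusted p = 3.1e-04). Its 2 92-1-only regions were in no other line. Of the 16 genes of that list, 5 had an A375-only region, among them EPCAM and KRT18, against 17.5% of all genes. Of 7 tested haematopoietic genes, CD34 and IKZF1 passed in the 92-1 direction. CD34 had 6, 5 and 4 windows against 1, 2 and 2 (limma adjusted p = 0.027), and IKZF1 3, 2 and 3 against none (adjusted p = 9.5e-04). Of the 13 genes of that list, 2, GATA2 and CD3E, had a strong window at the start in A375 only. The GATA2 region was a weaker peak in every 92-1 list (ranks 40801, 75054 and 40511) and was in 11 of the 15 untreated samples of other lines. No gene of the lists for HOX genes, eye field genes, and fibroblast and muscle genes passed. A strong window at the start in A375 only was found for 3 of 39 HOX genes, HOXA4, HOXD1 and HOXD9. This is near the 6.95% of all genes. The HOXD1 and HOXD9 regions were weaker peaks in every 92-1 list. Of 15 tested genes on the neural crest and neural list, FOXD3 and AQP1 passed in the A375 direction and none in the 92-1 direction. With windows of other lines left out, PAX3 and ETS1 of this list passed towards 92-1 (limma adjusted p = 0.041 and 0.021). Of the control lists, none of 31 tested ribosomal protein genes and none of 5 tested olfactory receptor genes passed. Genes with 1 window in each sample of a line and none in the other, such as RPLP0, OR2T1 and HOXD1, could not pass (limma adjusted p = 0.102). The smallest mean difference of a called gene was 1.67 windows. The control lists and the HOX list therefore say nothing about differences of 1 window.

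The strongest windows were spread differently over the chromosomes. Chromosome 8 held 8.80%, 8.20% and 8.17% of the windows in 92-1 and 4.66%, 4.57% and 4.85% in A375, and 12.4% of the 92-1-only regions against 3.92% of the A375-only regions. With only regions in no other line, chromosome 8 held 12.1% and 4.58%. Chromosome 6 held 5.47%, 6.45% and 6.24% against 3.89%, 3.85% and 4.22%. Chromosomes 15, 17, 19 and 20 were higher in A375, for example chromosome 19 with 3.30%, 3.71% and 3.54% against 1.30%, 1.64% and 1.47% in 92-1. The 3 samples of a line lay apart from those of the other on every chromosome read, not only on these 6. On chromosome 13, for example, they held 2.865 to 3.155% in 92-1 and 2.76 to 2.845% in A375. Copy number was not measured here and its part was not tested.

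**Figure D5:**
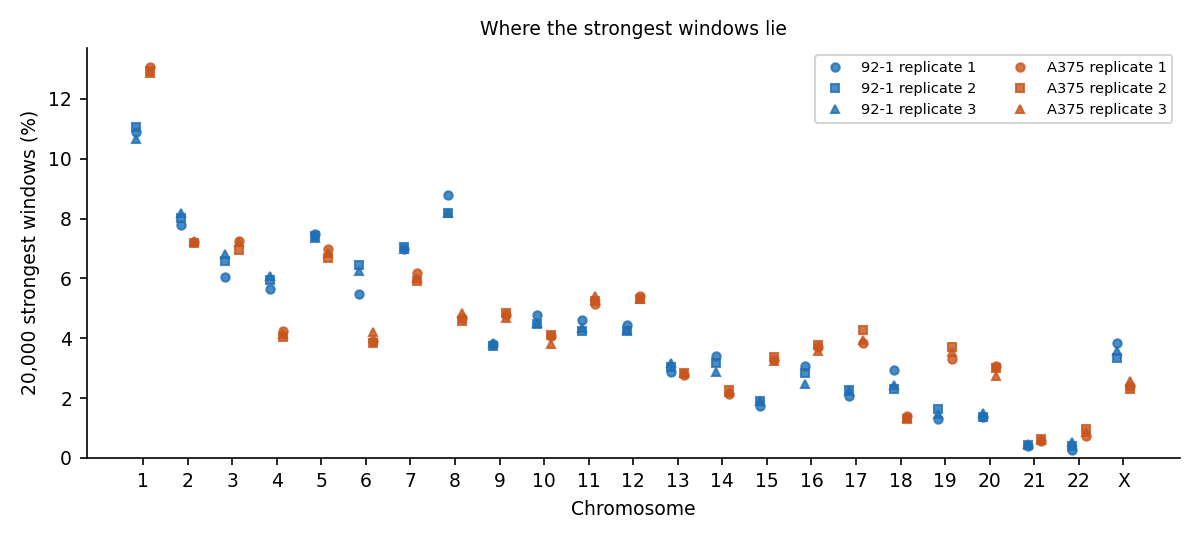
Percent of each sample's 20000 strongest windows on each chromosome, for the 3 untreated samples of 92-1 and of A375. On chromosome 8 the 92-1 samples lie at 8.17 to 8.80% and the A375 samples at 4.57 to 4.85%, and on chromosome 19 the order is the opposite.

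Promoters of the classes were searched for letter matches on both strands in the 300 bases from 250 before to 50 after a start. The region classes covered 192 promoters (92-1-only), 1279 (A375-only) and 2182 (shared), of 22156 promoters in all. The ETS sequence CCGGAAG was in 18.8%, 20.4% and 24.3% of them, against 12.8% of all promoters. The E-box CATGTG was in 6.77%, 5.63% and 5.0%, against 8.94%, and CACGTG, which MITF and other factors bind, in 6.77%, 13.1% and 9.35%, against 8.34%. The AP-1 sequence TGANTCA was in 6.25%, 4.77% and 2.20%, against 6.16%. The SOX sequences ACAAAG and ACAATG and the TEAD sequence GGAATG were in 14.1%, 5.21% and 9.90% of the 92-1-only promoters and 9.46%, 5.63% and 8.99% of the A375-only ones. GC content, which moves with such matches, was 61.4% in 92-1-only, 67.9% in A375-only and 66.0% in shared promoters. Most line-only regions lie outside promoters, and no sequence was read there.

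The lists of the 2 lines were set beside those of the other lines by the Jaccard index, the shared part of all regions of 2 samples. Samples of 92-1 had a mean index of 0.386 with each other and 0.193 with A375, and samples of A375 0.570 with each other. For 92-1, the index with A375 was below that with 22RV1 (0.208) and near that with HCT116 (0.198), and above those with RD (0.180), DU4475 (0.165) and MV411 (0.147). For A375, it was below those with RD (0.318), DU4475 (0.303), HCT116 (0.270) and 22RV1 (0.234), and above that with MV411 (0.174), where the groups overlapped. None of the 10 comparisons could pass (exact permutation p of 0.1 or more, adjusted p of 0.125 or more), and the groups did not overlap in 8. With 50000 windows the order turned for 92-1: its index with A375 was then above those with all 5 other lines, by 0.0047 for 22RV1 and 0.036 for HCT116. The lists also differ by depth and by the mark in their names.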

How the data were processed

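Of 42 peak lists, 27 were read: the DMSO samples of 7 lines and the FHT-1015 samples of 92-1 and A375. Per the submitters' processing notes, Bowtie2, Picard, MACS2, limma and HOMER were used with build hg38; no version or setting is given there. The deposited lists give each peak's fold enrichment, −log10 p and −log10 q, used only to rank or filter within a list. Read depth is unknown. The members and lists were chosen with earlier results of these data known.

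Peaks on chromosomes 1 to 22 and X became windows of 500 bp, strongest first. Gene names, starts and promoters come from RefSeq (GRCh38.p14): 15813 of 19974 protein-coding genes matched a start, and both gene ends stood in for the others. Exons and introns were not used here.

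Tests were exact permutations over samples and limma 3.58.1 in R 4.3.3. The planned limma fit failed 1 simulated noise model, so calls also had to pass a fit whose residual SD is kept at or above that of redrawing windows with the replicate share found, 63.8%. Limit and simulation share that model. With negative binomial noise, the planned fit made 0 false calls and found 51 of 100 genes at 16-fold, drawn from those with a mean of at least 2 windows. Named genes are up to 5 of each list with most line-only regions, chosen markers, the 12 largest calls in each direction (1 is not reported here), and the 6 best-ranked regions of each class. POLR2F, genes named with no windows or as list members that passed, and regions in no other line were chosen after their values were seen. Replicates shared few identical intervals, at most 1.13% of a list. Replicate numbers did not pair the samples. Alternatives changed the number of windows, the ranking, the overlap, the filter, the pseudocount, the samples and the replicate block; those with windows or regions in no other line, without regions that follow the word in the peak names, with a mean of at least 2 windows and with the limit on the residual SD were chosen after seeing the data.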

Additional observations from a re-analysis of the deposited data

How the results depend on the processing

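Directions of the peak counts and of the gene-start share held under every alternative run; without 1 sample the differences (92-1 minus A375) ranged from 158555 to 198434 peaks, from −31138.5 to −5096.5 strict peaks and from −18.7 to −16.0 percentage points. With the replicate block their p was 0.25, 0.5 and 0.25. The 92-1-only and A375-only regions numbered 2237 and 2553 with 10000 windows, 7236 and 13317 with 50000, 1640 and 1234 with absence judged on all deposited peaks, and 2349 and 2072 in none of the other lines' samples. Without 1 sample they ranged from 4083 to 6343 (the highest without replicate 3 of 92-1) and from 5696 to 7173. From the deposited lists there were 20929 and 14925, from strict peaks 3611 and 5845, and from peaks with q below 0.05 13421 92-1-only. Without 1 sample these ranged from 22540 to 58928, with 53498, 49079 and 58928 without replicates 1, 2 and 3 of 92-1, and from 17756 to 25200, the highest without replicate 3 of A375; a region then has to be in fewer samples. Gene calls, 998 and 1738, became 626 (92-1) with the replicate block, 389 and 355 with a mean of at least 2 windows, 668 (A375) with windows in no other line, 624 and 866 with the limit on the residual SD, and 482 and 604 with both fits. Without 1 sample the planned fit called 677 to 772 and 682 to 2006, with 698, 682 and 711 for A375 without its replicates 1, 2 and 3; the cause was not tested. The rule of both fits then called 193 to 299 genes for 92-1 and 120 to 341 for A375, and the order turned without A375 replicate 1 (193 and 127), 2 (196 and 120) or 3 (252 and 141), as it did with windows in no other line (565 and 341) and with a mean of at least 2 windows (288 and 244). With the replicate block it called 192 and 204. The lists of windows in no other line were not of equal length, with more windows left in each 92-1 sample than in any A375 sample. The likeness of 92-1 to A375 minus that to 22RV1 turned to 0.0047 and to HCT116 to 0.036 with 50000 windows, and to RD to −0.0027 with 10000; the cause was not tested. Of 43 named calls none changed sign; of those that could be fitted, 21 were lost with the replicate block, 18 with 50000 windows, 10 with 10000 and 8 with windows in no other line. Pairs of the same number had correlations of deviations of 0.019, −0.00065 and 0.0088 over 11225 genes. Depth limits what the absence of a window shows: in replicate 3 of 92-1, 4524 windows tied at the last place of the 20000.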
